A study of Mus musculus with 18 samples.

Results

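Mouse macrophages detect fungi, dead cells and oxidised lipid through C-type lectin receptors and scavenger receptors, and 10 such receptor genes were followed here: Clec4e, Clec4d, Clec4n, Clec7a, Clec5a, Mrc1, Msr1, Marco, Cd36 and Olr1. They were chosen by name, through the Ensembl gene identifiers of the count table, and are 10 of its 50600 genes. All 10 passed the filter on low counts. The cells were bone marrow-derived macrophages (BMDMs), grown from marrow of wild-type (WT) mice or of mice lacking the transcription factor IRF5 (IRF5 KO) with recombinant GM-CSF over 8 days. Defactinib, an inhibitor of the kinases PYK2 and FAK, was given at 3.5 μM for 1 h before lipopolysaccharide (LPS), the bacterial ligand of TLR4, at 100 ng/ml for 2 h. Each genotype had 3 groups of 3 libraries, called unstimulated, LPS DMSO (DMSO being the vehicle of the inhibitor) and LPS defactinib, which makes 6 groups and 18 libraries. For the unstimulated cells the sample labels name DMSO, whereas the column names carry an untreated mark, so whether they had vehicle is not settled. No unstimulated library had defactinib. The study's methods name male C57BL/6J mice as the animals purchased and wild-type mice as a source of marrow, without tying the first to the marrow. Whether marrow was pooled is not given in the sources used here. IRF5 KO cells lacked the factor throughout the culture as well as during LPS.

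C-type lectin receptors bind sugars or lipids of microbes and damaged cells. Clec7a (Dectin-1) binds β-glucan and signals through its own tail to the kinase SYK, whereas Clec4e (Mincle), Clec4d (MCL) and Clec4n (Dectin-2) use the adaptor FcRγ, and Clec5a uses DAP12. All these routes meet at SYK and the adaptor CARD9, upstream of NF-κB. Mrc1 (CD206), the mannose receptor, is an endocytic lectin without such a signalling tail and is widely used as a marker of alternatively activated macrophages. Scavenger receptors bind modified lipoproteins and other polyanions: Msr1 and Marco are trimeric class A receptors, Cd36 is a class B receptor that also takes up fatty acids, and Olr1 (LOX-1) is an oxidised LDL receptor with a lectin-like fold.

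Of the 10 genes, 6 lie on chromosome 6 of the mm10 genome. Clec4n (chr6:123229843-123247021, plus strand), Clec4d (chr6:123262111-123275265, plus strand) and Clec4e (chr6:123281789-123289870, minus strand) are neighbours in this set, with 15089 bases between Clec4n and Clec4d and 6523 between Clec4d and Clec4e. Clec7a (chr6:129461591-129472779) and Olr1 (chr6:129485244-129507165) are both on the minus strand, 12464 bases apart, and Clec5a (chr6:40574894-40585821, minus strand) lies elsewhere on the chromosome. Mrc1 is at chr2:14229392-14332057 on the plus strand. On the minus strand are Msr1 at chr8:39581685-39642673, Marco at chr1:120474538-120505024 and Cd36 at chr5:17781690-17888801. Counts were taken by strand, over all exons of a gene together.

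The 250 bases before the start site are shown for the neighbours Clec4e and Clec4d, whose levels after LPS are described first, for Marco, which differed most between the genotypes, and for Olr1. They come from the RefSeq promoter table (build GRCm38.p6), which held 8 of the 10 genes, Clec4n and Msr1 not among them. Each is written 5′ to 3′ on the strand of the gene, and capitals mark the matches to motif letters.
Clec4e, chr6:123289872-123290121, strand minus: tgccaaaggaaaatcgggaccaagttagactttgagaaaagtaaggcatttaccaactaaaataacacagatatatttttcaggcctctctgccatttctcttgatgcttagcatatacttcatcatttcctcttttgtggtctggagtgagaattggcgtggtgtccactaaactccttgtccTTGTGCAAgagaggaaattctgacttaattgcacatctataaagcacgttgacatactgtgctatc
Clec4d, chr6:123261857-123262106, strand +: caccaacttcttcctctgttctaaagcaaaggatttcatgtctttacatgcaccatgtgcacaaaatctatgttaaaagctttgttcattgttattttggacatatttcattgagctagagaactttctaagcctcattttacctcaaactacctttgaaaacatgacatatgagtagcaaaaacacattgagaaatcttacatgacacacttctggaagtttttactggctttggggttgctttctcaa
Marco, chr1:120505025-120505274, strand minus: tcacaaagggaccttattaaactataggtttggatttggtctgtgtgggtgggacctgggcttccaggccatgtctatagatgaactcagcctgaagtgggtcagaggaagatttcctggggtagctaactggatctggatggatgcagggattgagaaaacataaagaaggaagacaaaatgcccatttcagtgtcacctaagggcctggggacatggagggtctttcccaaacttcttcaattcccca
Olr1, chr6:129507166-129507415, strand minus: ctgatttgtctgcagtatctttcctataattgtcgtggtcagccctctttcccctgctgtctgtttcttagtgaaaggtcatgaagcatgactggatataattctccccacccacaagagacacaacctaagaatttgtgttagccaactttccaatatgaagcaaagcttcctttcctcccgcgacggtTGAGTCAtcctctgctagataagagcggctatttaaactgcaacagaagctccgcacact
Both strands were searched for TGANTCA (AP-1), TTGCNNAA (C/EBP), GGANTTTCC (NF-κB), GAAANNGAA (IRF) and GAGGAAGT (PU.1). These motifs were chosen with the expression values known. The 8 genes held 2 matches. In Clec4e, TTGTGCAA lies 66 to 59 bases before the start and matches the C/EBP letters on the opposite strand. In Olr1, TGAGTCA lies 60 to 54 bases before the start and matches AP-1. Among 32851 promoters of the same length, 9.56% held the C/EBP letters and 6.75% the AP-1 letters, against 1.07% for NF-κB, 7.13% for IRF and 2.44% for PU.1. The Clec4d and Marco windows held none of the 5, which says only that these letters are not in them.

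The libraries held between 39282181 and 61949143 read pairs assigned to genes. Each member had at least 502 counts in every library, and the lowest was Marco. Levels are in CPM, counts scaled to a common library size with TMM factors. The libraries of IRF5 KO LPS DMSO did not form 1 group. Replicates 1 and 2 correlated at r = 0.992 across genes (log2 CPM), whereas replicate 3 correlated with each of them at 0.932. In every other group the lowest r between libraries was 0.971. Among the libraries of other groups, replicate 3 correlated most with IRF5 KO unstimulated (0.978 to 0.979), and replicate 1 with IRF5 KO LPS defactinib (0.985 to 0.987). An exchange of labels among libraries was not tested, and it would change what every value of this group means. Calls that use IRF5 KO LPS DMSO are therefore given with all 3 libraries, with replicates 1 and 2, and with replicate 3 alone, the last chosen after the data were seen. In that fit the lone library is assumed to vary like the other groups. WT LPS defactinib replicate 3 also stood away from its group, with r of 0.971 and 0.977. Irf5 counts over the whole gene were 587 to 650.3 CPM in WT unstimulated and 335 to 397 CPM in IRF5 KO unstimulated libraries. After LPS they were 434 to 475 CPM in WT and 345 to 435 CPM in IRF5 KO with DMSO, and 213 to 379 CPM in WT and 353 to 392 CPM in IRF5 KO with defactinib. Whole-gene counts do not show which exons are deleted and so do not check the genotype.

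Markers of the cell types were examined because fewer cells of a type and less RNA per cell cannot be told apart in bulk libraries. All 8 macrophage markers were measured in every group (summed 9483 to 18887 CPM), as were 8 dendritic cell markers (10872 to 22544 CPM), among them Cd74, H2-Ab1 and Itgax. Of the defining dendritic cell genes, Flt3 was at or below a mean of 2.16 CPM, whereas group means ran from 25.2 to 91.3 CPM for Zbtb46 and from 23.2 to 311 CPM for Ccr7. The summed level of 10 neutrophil genes was 243 to 460.0 CPM in WT and 1075 to 2705 CPM in IRF5 KO libraries, most of it Mmp8 (191 and 1394 CPM on average in WT and IRF5 KO unstimulated cells), while Ly6g, Mpo, Elane and Retnlg were at or below a mean of 1.03 CPM in every group. For 9 mast cell and basophil genes the sum was 8.06 to 15.7 CPM in WT and 43.2 to 73.2 CPM in IRF5 KO, mainly Gata2 and Kit, with Fcer1a, Tpsb2 and Cma1 near 0. Genes of T, B and NK cells reached at most 1.04 CPM. Adgre1, the macrophage marker F4/80, averaged 73.3 CPM in WT and 302 CPM in IRF5 KO unstimulated cells. Before LPS the dendritic cell sum was 14595 to 15448 CPM in WT and 10872 to 12649.5 CPM in IRF5 KO. The macrophage sum was 9561 to 9933 and 10190.2 to 14470.3 CPM, and both were without overlap. The dendritic cell sum was mostly Cd74 (means 9852 and 7710 CPM), H2-Ab1 and Itgax, each lower in IRF5 KO. Ccr7 (36 and 63.1 CPM), Dpp4 (6.65 and 29.3 CPM) and Kmo (30.6 and 90.7 CPM) went the other way. The macrophage sum was mostly Lyz2 (8257 and 10726 CPM), and Mertk (66.4 and 47 CPM) went the other way. All these marker sums other than that of T, B and NK cells thus moved with genotype before LPS, and their part in the genotype differences of the receptors was not tested.

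Levels between the receptors were compared per kilobase of exon, as FPKM averaged over the 18 libraries. Clec4n was highest at 2236 FPKM, followed by Cd36 (670.1 FPKM) and Clec7a (507 FPKM). A middle range held Clec4d at 130.4 FPKM, Clec4e at 74.1 FPKM, Msr1 at 72.0 FPKM, Olr1 at 48.0 FPKM and Clec5a at 44.9 FPKM. Marco (33.9 FPKM) and then Mrc1 were lowest. The order of abundance was not the order of variation. The ratio of the highest to the lowest group mean was 13.2 for Marco, 9.22 for Clec4e and 5.56 for Mrc1, and 1.54 for Clec4n and 1.43 for Msr1. The plot of levels by library shows all values.

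**Figure D1:**
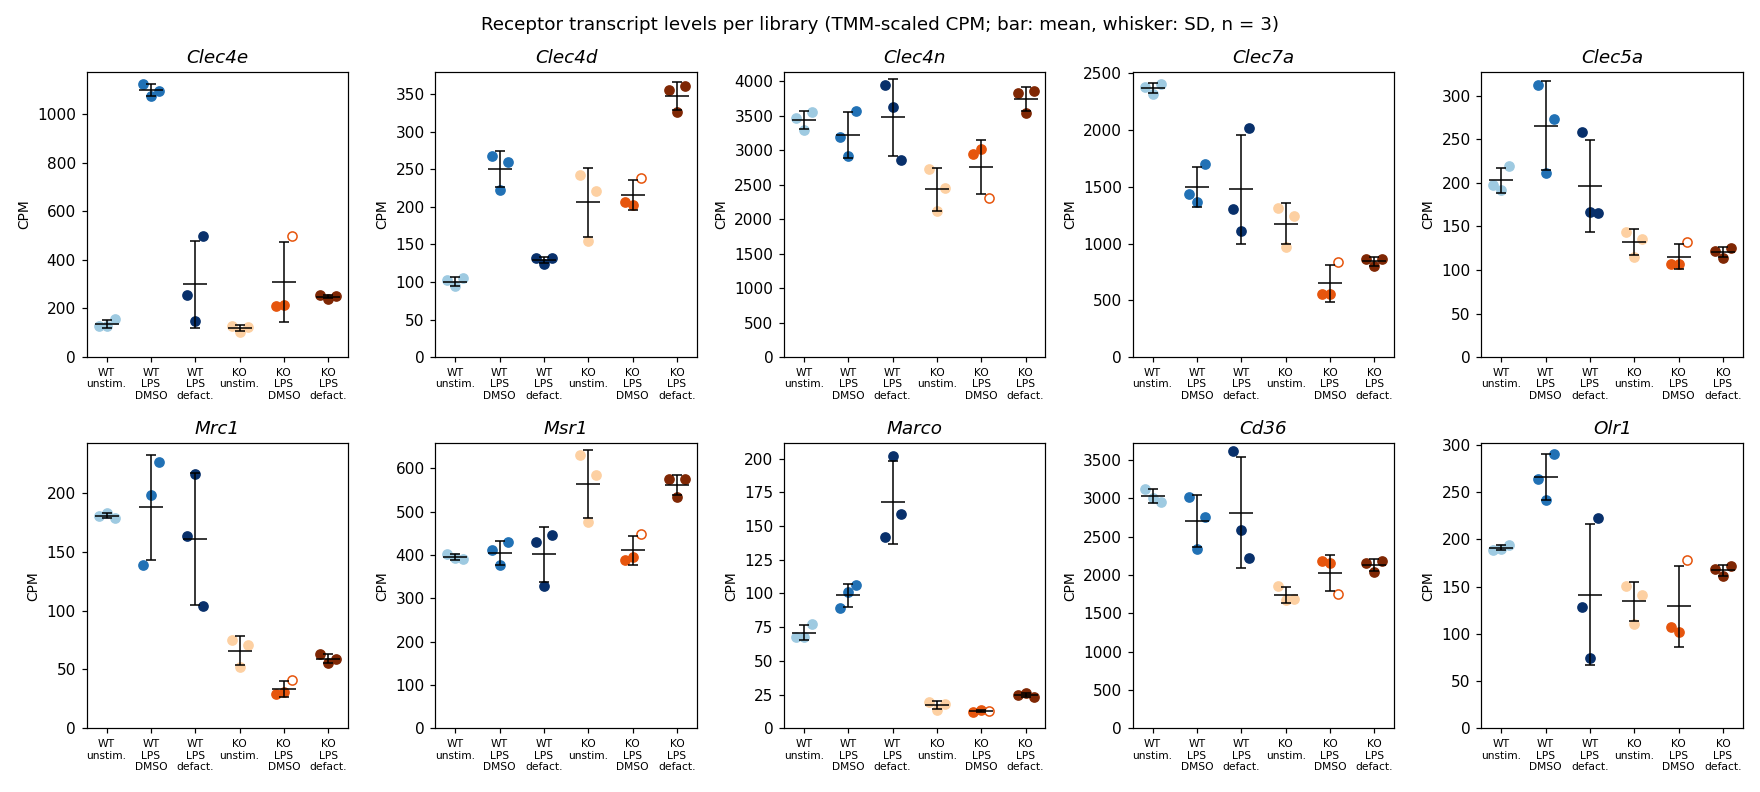
Level of each receptor gene in CPM (linear axes from 0) in the 18 libraries, by group, with 1 point per library, the bar at the mean and whiskers for the SD (n = 3); the open circle is IRF5 KO LPS DMSO replicate 3. Clec4e was at 1074 to 1122 CPM in WT LPS DMSO and at most 497 CPM in any other library. Every WT library was above every IRF5 KO library for Mrc1, Marco, Clec5a and Cd36.

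The response to LPS was examined first. In WT cells Clec4e rose 8.06-fold and Clec4d 2.49-fold, and no other member was called, where a call needs both an adjusted p under 0.05 in the edgeR quasi-likelihood test and a log2 fold change past 1 in size. Clec4e, the inducible receptor for mycobacterial cord factor and for a nuclear protein of dead cells, was at 127, 126 and 155 CPM before LPS and at 1122, 1074 and 1095 CPM after it. The groups did not overlap, and the log2 fold change was 3.01 ± 0.38 (SE, n = 3 against 3, edgeR adjusted p = 1.47e-05). Clec4d, which pairs with Clec4e in 1 receptor complex, was at 102, 94.1 and 105 CPM before and 268, 223 and 260.3 CPM after LPS. Its log2 fold change was 1.32 ± 0.13 (edgeR adjusted p = 1.369e-06). Of all 15663 tested genes, 21.3% were called in this comparison and 11.6% were higher, and the 2 called members are 2 of 10. The dendritic cell marker sum was 14595 to 15448 CPM before and 16890.3 to 20624 CPM after LPS. The neutrophil sum was 243 to 261 and 302 to 379 CPM, and the mast cell and basophil sum 10.2 to 11.3 and 13.6 to 15.7 CPM. These sums were without overlap, while Kmo (means 30.6 and 19.4 CPM) and Cxcr2 (5.43 and 0.514 CPM) were lower after LPS. The other sums overlapped, and the part of these markers was not tested.

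The neighbouring Clec4n, despite its place beside them, was at 3289 to 3545 CPM before and 2911 to 3573 CPM after LPS, a log2 difference of -0.09 with a 95% interval from -0.38 to 0.20. Clec7a, the β-glucan receptor, was lower after LPS in every WT library (2319 to 2410.1 against 1366 to 1700.3 CPM), with a log2 fold change of -0.66 ± 0.20 that passed the false discovery rate (edgeR adjusted p = 0.01363) but not the fold threshold. Marco was at 67.5, 67.9 and 77.3 CPM before LPS and 89.3, 101 and 106 CPM after it, without overlap, and its log2 fold change of 0.48 (edgeR adjusted p = 0.01123) was likewise below the threshold. For Mrc1 (interval -0.45 to 0.55), Msr1 (-0.22 to 0.30), Cd36 (-0.48 to 0.15), Olr1 (-0.14 to 1.09) and Clec5a (0.02 to 0.76) the adjusted p was above 0.05. With library size in place of TMM, the median of all genes in this comparison moved to -0.383, Clec4d then had a log2 fold change of 0.94, Clec7a passed the threshold at -1.04, and Mrc1 (-0.33) and Msr1 (-0.34) changed sign.

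In IRF5 KO cells 1 member rose after LPS with all libraries used, Clec4e, beside 13.3% of all genes called and 7.07% higher. Its level was 129, 104 and 123 CPM in unstimulated libraries and 211, 213 and 497 CPM after LPS, so that replicate 3 was far above the other 2. The log2 fold change was 1.37 ± 0.36 (edgeR adjusted p = 0.01075). It was 0.83 with replicates 1 and 2, which is below the threshold, and 2.08 with replicate 3 alone. Clec4d was at 242, 155 and 221 CPM before and 206, 203 and 239 CPM after LPS, with full overlap, a log2 difference of 0.07 and an interval from -0.22 to 0.35. That difference was -0.01 with replicates 1 and 2 and 0.23 with replicate 3 alone. Clec7a went from 970.2 to 1314 CPM before LPS to 555, 553 and 837 CPM after it (-0.86 ± 0.20, edgeR adjusted p = 0.005792) and Mrc1 from 51.7 to 75.3 CPM to 29.1, 30.5 and 41.4 CPM (-0.97 ± 0.23, edgeR adjusted p = 0.006801). Neither passed the fold threshold with all libraries. With replicates 1 and 2 both were called lower, at -1.09 for Clec7a and -1.15 for Mrc1, whereas with replicate 3 alone they were at -0.47 and -0.66 and not called. In a fit of only these 2 groups no member was called, and Clec4e was at 1.42. The dendritic cell marker sum was 10872 to 12649.5 CPM before and 14705 to 22544 CPM after LPS, without overlap. The other marker sums overlapped, and the part of these markers was not tested.

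Whether the LPS response differed between the genotypes was tested by the interaction. It was called for 3 members, all with a higher response in WT, against 9.83% of all genes in either direction and 6.33% in that direction. Clec4d had a difference of log2 fold changes of 1.25 ± 0.19 (edgeR adjusted p = 0.0006154), Clec4e of 1.64 ± 0.50 (0.03523 by the same test) and Mrc1 of 1.02 ± 0.32 (0.0416 by the same test). For Clec4d the value was 1.33 with replicates 1 and 2 of IRF5 KO LPS DMSO and 1.08 with replicate 3 alone, called in each case. For Clec4e it was 2.18 and 0.93, and for Mrc1 1.20 and 0.70, and neither was called with replicate 3 alone. With the replicate number as a block, the Mrc1 call was also lost (1.02, edgeR adjusted p = 0.056). Over the 18 fits that each left out 1 library, the Clec4e call was lost in 11 and the Mrc1 call in 15, and the Clec4d call in none. Marco, with 0.90 ± 0.20 (edgeR adjusted p = 0.006531), was below the fold threshold, with 0.90 in each of the split fits.

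**Figure D2:**
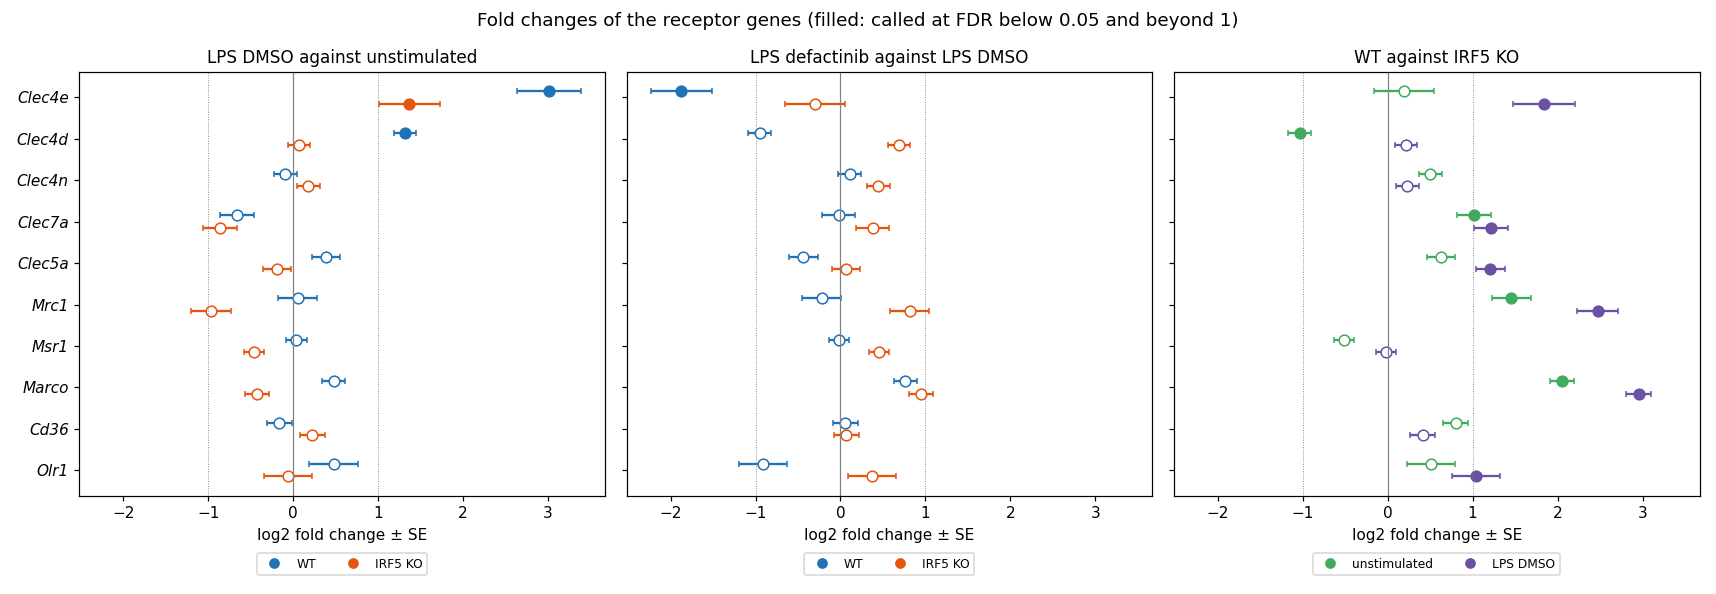
Log2 fold change of each receptor gene with its SE (whiskers) for LPS, for defactinib and for genotype (WT over IRF5 KO), with n = 3 libraries per group; filled points are called and dotted lines mark a log2 fold change of 1 in either direction. Clec4e stands out for LPS in WT at 3.01 and for defactinib in WT at -1.87, and Marco for genotype at 2.05 before and 2.95 after LPS.

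The effect of losing IRF5 was examined before and after LPS. Before LPS 4 of 10 members were called, 3 higher in WT and 1 lower, where 7.31% of all genes were called, 3.80% higher and 3.51% lower. After LPS 6 of 10 were called, all higher in WT, where 25.8% of all genes were called and 14% were higher in WT. The median log2 difference over the members was 0.57 before and 1.12 after LPS, against -0.01 and -0.05 over all tested genes. The 2 comparisons share no library. The comparison after LPS shares WT LPS DMSO with both WT comparisons and rests on IRF5 KO LPS DMSO.

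Marco, a receptor for bacteria and particles that is typical of alveolar and marginal zone macrophages, differed most. It was at 67.5, 67.9 and 77.3 CPM in WT and 19.6, 13.6 and 18.1 CPM in IRF5 KO unstimulated cells, a 4.14-fold difference (log2 2.05 ± 0.14, edgeR adjusted p = 1.913e-07). After LPS it was at 89.3, 101 and 106 CPM in WT and 12.3, 13.3 and 12.6 CPM in IRF5 KO cells, a 7.75-fold difference (log2 2.95 ± 0.15, edgeR adjusted p = 3.944e-09). Here replicate 3 of the knockout was like the others, and the log2 difference was 2.95 with replicates 1 and 2 and 2.95 with replicate 3 alone.

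Mrc1 followed the same order. Before LPS its levels were 180.1, 183 and 179 CPM in WT and 75.3, 51.7 and 70.8 CPM in IRF5 KO cells (log2 1.46 ± 0.23, edgeR adjusted p = 0.0004497). After LPS they were 139, 198 and 226 CPM in WT and 29.1, 30.5 and 41.4 CPM in IRF5 KO cells (log2 2.48 ± 0.24, edgeR adjusted p = 1.502e-06). The lowest WT library was above the highest knockout library in each case. After LPS the difference was 2.65 with replicates 1 and 2 and 2.16 with replicate 3 alone, called in both.

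Clec7a was at 2383, 2319 and 2410.1 CPM in WT and 1314, 970.2 and 1245 CPM in IRF5 KO unstimulated cells, without overlap. The log2 difference of 1.01 ± 0.20 (edgeR adjusted p = 0.002393) lay just past the threshold, and was 0.90 with library size alone, 0.99 without a filter and 0.89 without IRF5 KO unstimulated replicate 2. After LPS it was at 1436, 1366 and 1700.3 CPM against 555, 553 and 837 CPM (log2 1.21 ± 0.20, edgeR adjusted p = 0.0001635). This became 1.44 with replicates 1 and 2 and 0.82, not called, with replicate 3 alone. Clec4d was the member that was lower in WT before LPS, at 102, 94.1 and 105 CPM against 242, 155 and 221 CPM (log2 -1.04 ± 0.13, edgeR adjusted p = 5.197e-05). Leaving out IRF5 KO unstimulated replicate 1 brought this to -0.91 and replicate 3 to -0.99, in each case short of the threshold, as did leaving out WT unstimulated replicate 2 (-0.99). After LPS the log2 difference was 0.21 with an interval from -0.07 to 0.50.

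The other members called after LPS were Clec4e, Clec5a and Olr1. Clec4e was at 1122, 1074 and 1095 CPM in WT LPS DMSO and 211, 213 and 497 CPM in IRF5 KO LPS DMSO, without overlap (log2 1.84 ± 0.36, edgeR adjusted p = 0.0007559), while before LPS the libraries overlapped (log2 0.19, interval -0.57 to 0.96). Clec5a, which senses flaviviruses among others, was at 313, 212 and 273 CPM against 107, 107 and 132 CPM (log2 1.21 ± 0.17, edgeR adjusted p = 4.16e-05), with 0.63 ± 0.17 before LPS. Olr1 was at 264, 242 and 290.5 CPM against 107, 102 and 178 CPM (log2 1.04 ± 0.29, edgeR adjusted p = 0.007313). With replicates 1 and 2 the differences were 2.37 for Clec4e, 1.32 for Clec5a and 1.34 for Olr1, all called. With replicate 3 alone they were 1.12 for Clec4e, 0.99 for Clec5a and 0.56 for Olr1, none of them called, so that 2 of the 6 calls, Mrc1 and Marco, held in that fit. With library size alone 3 held (Clec4e, Mrc1 and Marco). The Olr1 call was also lost on leaving out WT LPS DMSO replicate 3 (0.96) or IRF5 KO LPS DMSO replicate 1 (0.91) or 2 (0.88). It was also lost at 1.00 with a minimum of 5 CPM and in a fit of only the groups compared.

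Cd36 and Clec4n, the most abundant members, differed less. Cd36 was at 2952 to 3125 CPM in WT and 1674 to 1858 CPM in IRF5 KO unstimulated cells (log2 0.80 ± 0.15, edgeR adjusted p = 0.00137), and after LPS the difference was 0.41 ± 0.15 (0.32 with replicates 1 and 2 and 0.60 with replicate 3 alone). Clec4n had a log2 difference of 0.50 ± 0.13 before LPS (edgeR adjusted p = 0.01776) and 0.23 after it, with an interval from -0.06 to 0.52. Msr1 went the other way before LPS, with 402, 394 and 390.3 CPM in WT and 631, 477 and 584 CPM in IRF5 KO cells (log2 -0.51 ± 0.12, edgeR adjusted p = 0.007314). After LPS its interval ran from -0.28 to 0.24. None of these 3 genes passed the fold threshold in either comparison.

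**Figure D3:**
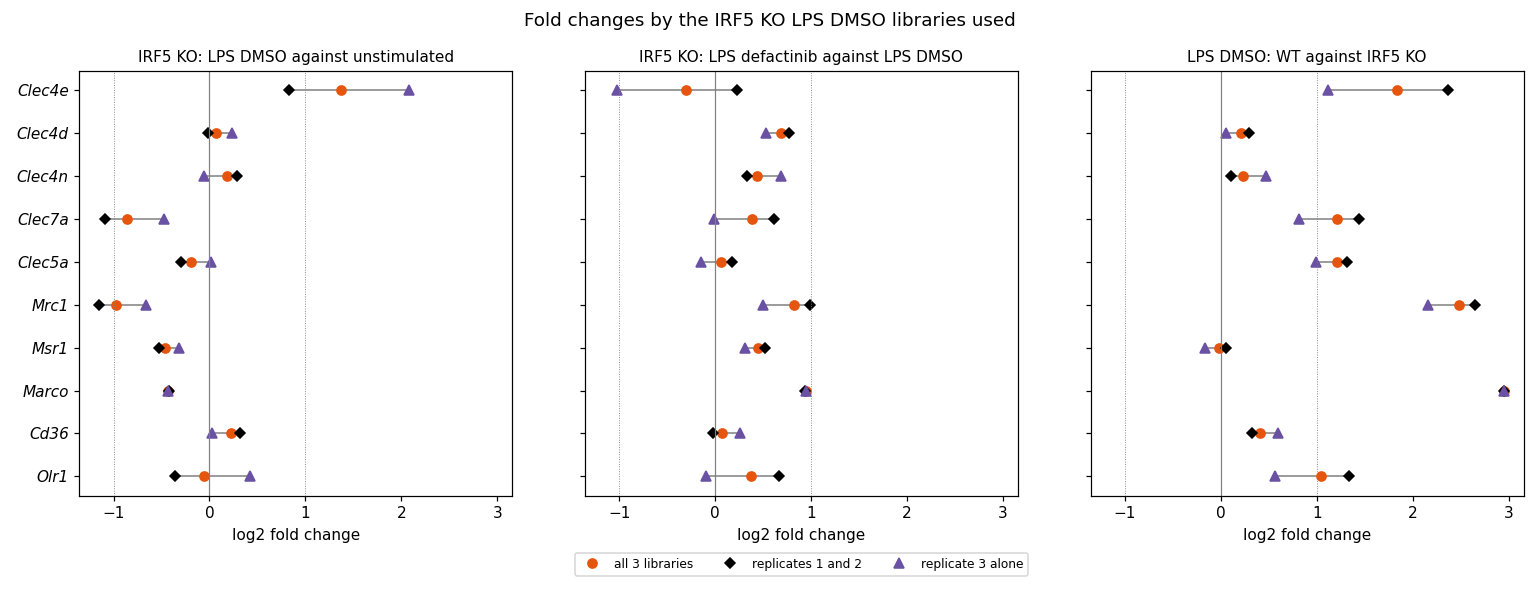
Log2 fold change of each receptor gene with all 3 IRF5 KO LPS DMSO libraries (circles), with replicates 1 and 2 (diamonds) and with replicate 3 alone (triangles), for 3 comparisons that use the group; dotted lines mark a log2 fold change of 1 in either direction. Marco stays at 2.95 for genotype after LPS, whereas Clec4e runs from 0.83 to 2.08 for LPS in IRF5 KO.

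Defactinib was compared with DMSO among LPS-treated cells. In WT cells 1 member fell, Clec4e, where 29.1% of all genes were called and 18.6% were lower. Its level was 254, 148 and 497 CPM with defactinib against 1122, 1074 and 1095 CPM with DMSO, without overlap and with a wide spread among the treated libraries (log2 -1.87 ± 0.36, edgeR adjusted p = 0.0005144). Clec4d was at 132, 124 and 132 CPM with defactinib against 268, 223 and 260.3 CPM, also without overlap, and its log2 fold change of -0.95 ± 0.13 (edgeR adjusted p = 2.541e-05) was short of the threshold. It passed at -1.01 without WT LPS DMSO replicate 2. Olr1 was at 128, 74.3 and 222 CPM against 264, 242 and 290.5 CPM (log2 -0.91 ± 0.29, edgeR adjusted p = 0.01347). Over the fits that left out 1 library Olr1 ran from -1.38, without WT LPS defactinib replicate 3 and past the threshold, to -0.59 without replicate 2 of that group. Clec4e ran from -2.44 to -1.54 in the same fits and was called in each. In this comparison the macrophage marker sum was 9483 to 10031 CPM with DMSO and 10473 to 14833 CPM with defactinib. It was mostly Lyz2 (means 8208 and 11095 CPM), while Mertk (150 and 47.9 CPM) and Cd14 (388 and 102 CPM) were lower. The mast cell and basophil sum was 13.6 to 15.7 and 8.06 to 11.2 CPM, also without overlap, and the other marker sums overlapped. The part of these markers in the receptor values was not tested.

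Marco was the member with the largest positive value for defactinib in WT. It was at 142, 202 and 159 CPM with defactinib against 89.3, 101 and 106 CPM with DMSO, without overlap (log2 0.76 ± 0.14, edgeR adjusted p = 0.0002817), below the fold threshold. Clec7a was at 1301, 1110.1 and 2022 CPM against 1436, 1366 and 1700.3 CPM, and its interval ran from -0.45 to 0.41. For Clec4n (-0.18 to 0.40), Msr1 (-0.27 to 0.25), Cd36 (-0.26 to 0.38) and Mrc1 (-0.72 to 0.28) the interval lay within 1 of 0, and the Clec5a log2 fold change was -0.44 ± 0.17.

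In IRF5 KO cells no member was called for defactinib by edgeR or by DESeq2, while 5 had an unadjusted edgeR p below 0.05 and 0.919% of all genes were called. All 5 were higher with defactinib. In the same comparison the macrophage marker sum was 9730.2 to 12216 CPM with DMSO and 17934 to 18887 CPM with defactinib, and the neutrophil sum 1139.8 to 1697 and 2521 to 2705 CPM, both without overlap, and their part in these values was not tested. Marco was at 24.5, 26.1 and 23.1 CPM against 12.3, 13.3 and 12.6 CPM with DMSO, without overlap (log2 0.95 ± 0.14, edgeR adjusted p = 0.003662), with 0.94 against replicates 1 and 2 and 0.95 against replicate 3 alone. Clec4d was at 356, 327 and 361 CPM against 206, 203 and 239 CPM, again without overlap (log2 0.69 ± 0.13, edgeR adjusted p = 0.01666), with 0.77 and 0.53 in these fits. Msr1 was at 575, 535 and 575 CPM against 389, 395 and 448 CPM (log2 0.45 ± 0.12, edgeR adjusted p = 0.0499), with 0.52 against replicates 1 and 2 and 0.31 (edgeR adjusted p = 0.125) against replicate 3 alone. The other 2 were Mrc1 (log2 0.82, edgeR adjusted p = 0.0622) and Clec4n (log2 0.44, edgeR adjusted p = 0.07288). Against replicates 1 and 2 they were at 0.99 and 0.33, and against replicate 3 alone at 0.50 and 0.69. Clec4e was at 255, 240.1 and 251 CPM with defactinib. It had a log2 difference of -0.30 with all libraries, 0.23 against replicates 1 and 2 and -1.02 against replicate 3 alone, so that its sign depended on the DMSO libraries used.

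The defactinib effect differed between the genotypes for 4 members by the interaction, all with a lower value in WT, where 22.8% of all genes were called and 12.3% were lower. Clec4d differed by -1.64 ± 0.19 (edgeR adjusted p = 7.993e-06), from -0.95 in WT and 0.69 in IRF5 KO cells. Clec4e differed by -1.57 ± 0.50 (edgeR adjusted p = 0.02277), Olr1 by -1.28 ± 0.40 (edgeR adjusted p = 0.02109) and Mrc1 by -1.03 ± 0.32 (edgeR adjusted p = 0.0206). With replicates 1 and 2 of IRF5 KO LPS DMSO the 4 values were -1.72, -2.11, -1.58 and -1.21, and all were called. With replicate 3 alone they were -1.46 for Clec4d, which was still called, and -0.84, -0.79 and -0.70 for Clec4e, Olr1 and Mrc1, which were not. Over the 18 fits that each left out 1 library, the call was lost in 3 for Clec4e, in 4 for Olr1, in 7 for Mrc1 and in none for Clec4d. Without WT LPS defactinib replicate 3 the Mrc1 value was -0.76. The point estimates of all 10 members were negative, with Cd36 at -0.01. With library size alone those of Cd36 (0.31) and Marco (0.14) were positive. The median of all genes for this interaction was 0.12 with TMM and 0.451 with library size alone.

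Defactinib-treated WT cells were also set against IRF5 KO cells after LPS. Of the members, 3 were higher in WT LPS defactinib than in IRF5 KO LPS DMSO, where 15.6% of all genes were called and 5.26% were higher. Marco was at 142, 202 and 159 CPM against 12.3, 13.3 and 12.6 CPM, a 13.2-fold difference (log2 3.72 ± 0.16, edgeR adjusted p = 3.773e-10), with 3.71 against replicates 1 and 2 and 3.73 against replicate 3 alone. Mrc1 was at 163, 216 and 104 CPM against 29.1, 30.5 and 41.4 CPM (log2 2.26 ± 0.24, edgeR adjusted p = 4.273e-06), with 2.43 and 1.96 in these fits. Clec7a had a log2 difference of 1.19 ± 0.20 (edgeR adjusted p = 0.0003244), which was 0.90 without WT LPS defactinib replicate 3 and 0.82 with IRF5 KO LPS DMSO replicate 3 alone, not called in either. Clec4e was at 254, 148 and 497 CPM against 211, 213 and 497 CPM, overlapping throughout, with a log2 difference of -0.03 and an interval from -0.80 to 0.73. That value was 0.50 with IRF5 KO LPS DMSO replicates 1 and 2 and -0.73 with replicate 3 alone. It was -0.61 without WT LPS defactinib replicate 3. Clec4d was lower in treated WT cells (log2 -0.74 ± 0.13, edgeR adjusted p = 0.0004998), short of the fold threshold.

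The 6 group means were put in order for each receptor, and Clec5a and Mrc1 had the same order. Clec4e was highest in WT LPS DMSO (1097 ± 24.3 CPM, SD, n = 3), then came IRF5 KO LPS DMSO (307 ± 165), WT LPS defactinib (299.6 ± 179) and IRF5 KO LPS defactinib (249 ± 7.81), whose libraries overlapped from each group to the next. WT unstimulated (136 ± 16.3) and IRF5 KO unstimulated (mean 119) also overlapped. Clec4d was highest in IRF5 KO LPS defactinib (348 ± 18.2 CPM), above WT LPS DMSO (250.4 ± 24.3), and lowest in WT unstimulated (100.4 ± 5.66). Marco was highest in WT LPS defactinib (167 ± 31.1 CPM) and lowest in IRF5 KO LPS DMSO (12.7 ± 0.533). For Mrc1 the 3 WT groups (161 to 187 CPM) overlapped with each other and lay above the 3 IRF5 KO groups (33.7 to 66.0 CPM). For Clec7a the highest group was WT unstimulated (2371 ± 46.7 CPM), and WT LPS DMSO (1501 ± 176) and WT LPS defactinib (1477 ± 481) could not be separated.

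**Figure D4:**
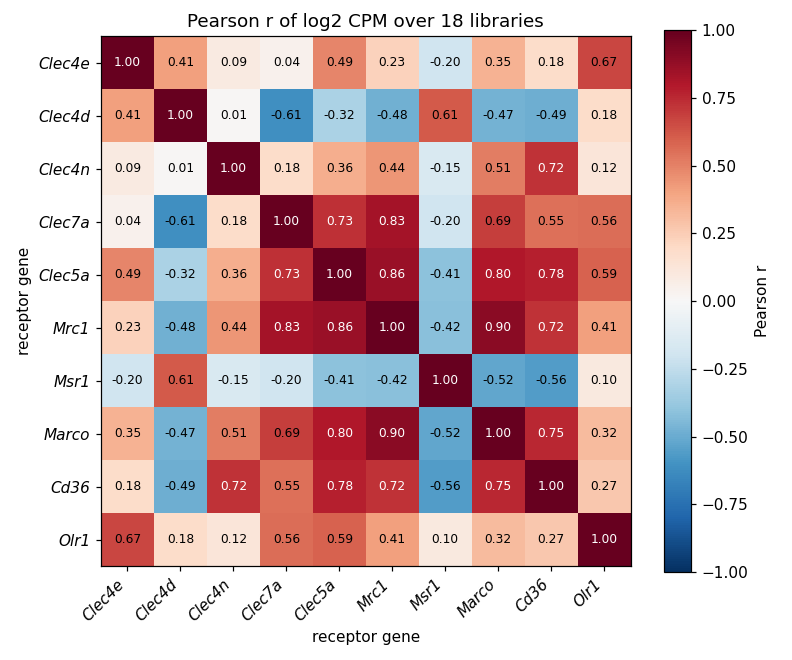
Pearson r of log2 CPM between the receptor genes over the 18 libraries, written in each cell and coloured from -1 (blue) to 1 (red). Mrc1, Marco, Clec5a and Clec7a have r of 0.69 to 0.90 with each other. Cd36 has r of 0.72 with Mrc1, 0.75 with Marco and 0.78 with Clec5a, and 0.55 with Clec7a. Clec4d is negatively related to Mrc1, Marco, Clec7a, Cd36 and Clec5a.

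Across the 18 libraries, which share groups and so are not independent, Mrc1 and Marco had the highest correlation among the members (r = 0.90). Clec5a with Mrc1 (0.86) and Clec7a with Mrc1 (0.83) followed. Over the 15 libraries without IRF5 KO LPS DMSO these values were 0.86, 0.83 and 0.69, and Clec7a with Marco went from 0.69 to 0.52. Msr1 then went from -0.42 to -0.85 with Mrc1 and from -0.52 to -0.82 with Marco. Clec4e and its neighbour Clec4d had r = 0.41. Clec4d was at -0.61 with Clec7a and 0.61 with Msr1. Among all tested genes, those whose pattern was most like Clec4e were Ptgs2os2 (r = 0.988), Sp140 (0.983) and Fabp3 (0.98). For Marco they were Wfdc17 (0.98), Serpinb6a (0.975) and Ctsk (0.971). For Mrc1 they were Gm13415 (0.968), Gpr137b (0.964) and Aldh1l1 (0.96), and for Clec7a Slc41a2 (0.968), Slc29a3 (0.957) and Ankrd28 (0.957). These are descriptions over 18 libraries, or 15 where stated, in which genotype and LPS set much of the variation.

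The rest of the pathway was described by 4 lists, whose counts stand beside the shares of all genes called. These were 21.3% for LPS in WT, 29.1% for defactinib in WT, 7.31% for genotype before LPS and 25.8% after it. With replicates 1 and 2 of IRF5 KO LPS DMSO, 5538 of 16037 genes were called for genotype after LPS. Of 23 genes of SYK and CARD9 signalling, all tested, 6 were called for LPS in WT: Src, Bcl10 and Malt1 rose and Inpp5d, Vav2 and Prkcd fell. None was called for genotype before LPS and 6 were after it, with Src, Bcl10 and Syk higher and Inpp5d, Card9 and Vav2 lower in WT. With replicates 1 and 2 of IRF5 KO LPS DMSO 7 were called after LPS. The list median for genotype after LPS was 0.13 with all libraries. It was 0.26 with replicates 1 and 2 and 0.14 with replicate 3 alone. With defactinib in WT 7 were called: Src, Bcl10, Syk and Malt1 were lower and Inpp5d, Card9 and Vav2 higher. Bcl10, the partner of CARD9 and MALT1, had a log2 fold change of -2.52 ± 0.16 (edgeR adjusted p = 9.51e-09) and Card9 1.26 ± 0.14. The 2 most abundant genes of the list, the adaptors Tyrobp (DAP12, 423 FPKM) and Fcer1g (FcRγ, 362 FPKM), were called in none of the 9 comparisons. Their log2 values for LPS in WT were -0.15 and 0.29.

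Of 25 other C-type lectin genes, 21 were tested. For genotype before LPS 5 were called, with Cd207, Cd209e and Cd209d higher and Clec4a4 and Clec1a lower in WT. The log2 values were 8.59 ± 2.02 for Cd207, 5.55 ± 1.37 for Cd209e and 5.02 ± 0.64 for Cd209d. For Cd207 the LPS and defactinib comparisons within IRF5 KO gave 0.0 with no SE, so the size of its difference is not well determined. For Cd209e these comparisons had SEs of 2.0 and 2.46, so the size of its difference is uncertain too. After LPS the Cd209e difference was 3.04 ± 1.29 (edgeR adjusted p = 0.0617), not called. After LPS 8 were called. Clec4a4 (DCIR2), an inhibitory lectin, had log2 differences of -1.92 ± 0.29 before and -2.14 ± 0.29 after LPS. After LPS 9 of the list were called with replicates 1 and 2. Clec4a4 was called in that fit at -2.27, and was at -1.85 with replicate 3 alone. Ly75 (DEC-205), a lectin of dendritic cells, rose by 2.21 ± 0.24 on the log2 scale with LPS in WT. Mgl2 (325 FPKM) and Cd302 (83.8 FPKM), the most abundant of the list, were called in no comparison. The list median was 0.33 for genotype after LPS, where that of the 10 members was 1.12. The list value was 0.16 with replicates 1 and 2 and 0.37 with replicate 3 alone.

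Of 16 other scavenger receptor genes, 13 were tested and 2 were called for LPS in WT, Cxcl16 higher and Scarf2 lower. For genotype before LPS Cd5l and Scara3 were higher and Stab1 lower in WT, and after LPS Scara3, Cxcl16 and Colec12 were higher and Stab1 lower. Stab1 (stabilin-1), which clears modified LDL, was at log2 -2.14 ± 0.22 before and -2.23 ± 0.22 after LPS, a direction opposite to that of Marco and Mrc1. After LPS 5 of the list were called with replicates 1 and 2, among them Stab1 (-2.26) and Cxcl16 (1.51). With replicate 3 alone Stab1 was at -2.19 and Cxcl16 at 0.98, below the fold threshold. Cxcl16, a chemokine that also binds oxidised LDL, was at 246 CPM on average in WT unstimulated and 494 ± 34.4 CPM in WT LPS DMSO, and at 137 ± 9.69 and 198 ± 42.6 CPM in the knockout. Cd68, the most abundant (245 FPKM), was called nowhere.

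Of 16 genes of lipid uptake and handling, all tested, 4 were called for genotype before LPS, all higher in WT: Rxra, Nr1h3 (LXRα), Fabp4 and Pparg. After LPS 5 were called, again all higher in WT: Nr1h3, Fabp4, Plin2, Acsl1 and Abcg1. That number was 6 with replicates 1 and 2, all higher in WT. Fabp4, a fatty acid chaperone, was higher in WT by 2.71 ± 0.35 before and 3.38 ± 0.36 after LPS on the log2 scale (4.01 with replicates 1 and 2 and 2.61 with replicate 3 alone). Pparg, a lipid-sensing nuclear receptor, was higher by 1.40 ± 0.17 before LPS. The list median was 0.52 before and 0.67 after LPS, against -0.01 and -0.05 for all genes. After LPS it was 0.68 with replicates 1 and 2 and 0.64 with replicate 3 alone. Lpl (669 FPKM) and Lipa (358 FPKM), the most abundant of the list, were not called in any comparison.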

How the data were processed

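RNA-seq was analysed in all 18 libraries, 3 for each of 6 groups taken from the labels. The authors aligned reads to mm10 with STAR and counted uniquely mapped pairs with featureCounts 1.6.3, with the reverse-strand setting, summing the exons of each Ensembl gene. The deposited values are unnormalised counts of 50600 genes, and the gene name table supplied with the reference gave a symbol for 50376. The labels also name DESeq2.

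Counts were fitted with edgeR 4.0.16 (R 4.3.3): TMM, filterByExpr (15663 genes kept), 1 mean per group over all 18 libraries, a robust quasi-likelihood F test, two-sided, with Benjamini-Hochberg adjustment over all tested genes. A call required an adjusted p under 0.05 and a log2 fold change past 1 in size. The SE was taken as the size of the log2 fold change divided by the square root of F, and the 95% intervals use 12 degrees of freedom. DESeq2 1.42.0 was an alternative. In data simulated for LPS in WT, with the same spread for all genes, most genes given a change were called in its direction. No library standing apart from its group was simulated. The series' design text calls the libraries biological replicates, and no animal is named for a library, so p-values measure the spread between libraries.

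The genes, lists and motifs were chosen with earlier results of these data known. Named genes are the 10 members, the 2 most abundant genes of each list and, for Clec4e, Clec7a, Mrc1 and Marco, the 3 genes most correlated with each. Called genes of the lists are named beyond this rule, chosen after their values were seen. Alternatives were other normalizations, filters, a replicate block, fits restricted to the groups being compared, dropping the fold threshold and leaving out each library in turn. A fit with IRF5 KO LPS DMSO replicate 3 alone, and the list counts with and without that library, were added after the data were seen. Replicate numbers did not pair the libraries: among 45 pairs of same-numbered libraries, deviations from the group means correlated with a median r of 0.005, and only 4 pairs passed 0.1.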

Additional observations from a re-analysis of the deposited data

Results flagged for a closer look

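The LPS response differed between the genotypes by the interaction test for 4 members, at an edgeR adjusted p under 0.05 with no fold threshold. Marco was among them, below the threshold used for calls. Of all 15663 tested genes, 2681 passed that rule. The difference of log2 fold changes, WT less IRF5 KO, was 1.64 for Clec4e, 1.25 for Clec4d, 1.02 for Mrc1 and 0.90 for Marco. On leaving out 1 library in turn the call was lost in 11 fits for Clec4e and in 15 for Mrc1. In WT cells Clec4e and Clec4d rose, whereas in IRF5 KO cells Clec4d had a log2 difference of 0.07.

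By the same rule the defactinib effect differed between the genotypes for 5 members, with Msr1 below the fold threshold. Of all 15663 tested genes, 5789 passed that rule. The differences were -1.64 for Clec4d, -1.57 for Clec4e, -1.28 for Olr1, -1.03 for Mrc1 and -0.46 for Msr1. The call was lost in 3 fits for Clec4e, 4 for Olr1 and 7 for Mrc1. The Clec4d log2 value was -0.95 in WT and 0.69 in IRF5 KO cells, and in each genotype the libraries with and without defactinib did not overlap. Both interactions use the IRF5 KO LPS DMSO libraries, which stood apart from each other. Groups of 3 libraries were not tested for a library far from the others.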

How the results depend on the processing

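The number of members called stayed within 1.5 times the reported number except as follows. Without a fold threshold it was 4 for LPS in WT, 5 for LPS in IRF5 KO and 5 for defactinib in WT. Of all 15663 tested genes, 6553, 5878 and 8922 were called in these comparisons. The number of members was 3 for defactinib in IRF5 KO, 8 for genotype before LPS and 6 for defactinib-treated WT against IRF5 KO. Of all tested genes, 527, 2396 and 5005 were called there. With library size alone the number of members was 3 for LPS in IRF5 KO, 3 for genotype after LPS and 1 for each interaction. Of all tested genes, 2586 were called for LPS in IRF5 KO and 4260 for genotype after LPS. The LPS interaction had 1460 and the defactinib interaction 4133. Without a filter the interactions gave 1 and 2 members, and 1128 and 3310 of 26458 genes. With only the groups compared LPS in IRF5 KO gave 0 members and the defactinib interaction 1. Over all genes these gave 153 of 14149 and 2952 of 15192. With IRF5 KO LPS DMSO replicate 3 alone, chosen after seeing the data, genotype after LPS gave 2 and each interaction 1. Leaving out 1 library gave 1 to 2 for LPS in IRF5 KO, 1 to 2 for defactinib in WT, 1 to 3 for the LPS interaction and 1 to 4 for the defactinib interaction. The replicate block changed 1 of the member counts, the LPS interaction (2, where Mrc1 was lost), and the replicate numbers do not pair the libraries.

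Signs that turned belonged to values that were not called. They turned with library size alone for LPS in WT Mrc1 (-0.33), Msr1 (-0.34), for LPS in IRF5 KO Clec4d (-0.16), Clec4n (-0.07), Cd36 (-0.02), for defactinib in WT Clec7a (0.17), Msr1 (0.18), for defactinib in IRF5 KO Clec5a (-0.07), Cd36 (-0.05), for genotype after LPS Clec4d (-0.05), Clec4n (-0.01), for interaction of genotype and defactinib Marco (0.14), Cd36 (0.31). With at least 5 CPM in 3 libraries they turned for defactinib in WT Clec7a (0.02), Msr1 (0.03), for interaction of genotype and defactinib Cd36 (0.08), and with only the groups compared for defactinib in WT Clec7a (0.01), Msr1 (0.02). With DESeq2 and with its size factors Msr1 for genotype after LPS was at 0.00. With IRF5 KO LPS DMSO replicate 3 alone they turned for LPS in IRF5 KO Clec4n (-0.06), Clec5a (0.02), Olr1 (0.42), for defactinib in WT Msr1 (0.00), for defactinib in IRF5 KO Clec7a (-0.01), Clec5a (-0.15), Olr1 (-0.10), for defactinib-treated WT against IRF5 KO Olr1 (-0.34), for interaction of genotype and LPS Clec7a (-0.19), for interaction of genotype and defactinib Clec7a (0.00). Leaving out 1 library also turned some signs. Ranges were, for LPS in WT Mrc1 from -0.10 to 0.23 and Msr1 from -0.01 to 0.08, and for LPS in IRF5 KO Olr1 from -0.36 to 0.10 and Clec4d from -0.10 to 0.20. Ranges were, for defactinib in WT Msr1 from -0.08 to 0.12, Cd36 from -0.13 to 0.21, Clec7a from -0.30 to 0.16 and Mrc1 from -0.49 to 0.04, and for defactinib in IRF5 KO Clec5a from 0.00 to 0.18, Clec4e from -0.53 to 0.23 and Cd36 from -0.02 to 0.11. Ranges were, for genotype after LPS Msr1 from -0.07 to 0.05, and for defactinib-treated WT against IRF5 KO Clec4e from -0.61 to 0.50, Msr1 from -0.11 to 0.09 and Olr1 from -0.36 to 0.43. Ranges were, for interaction of genotype and defactinib Cd36 from -0.18 to 0.16. Apart from the added fit, which uses fewer libraries, the cause of these shifts was not tested. With 3 libraries a group, differences near the fold threshold are the least certain.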

Other observations

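Within IRF5 KO LPS DMSO the members differed from each other in how far replicate 3 lay from the mean of replicates 1 and 2. The log2 distance was 1.23 for Clec4e, 0.76 for Olr1, 0.60 for Clec7a, 0.47 for Mrc1 and 0.31 for Clec5a. It was 0.23 for Clec4d and 0.19 for Msr1, and -0.02 for Marco, while Cd36 (-0.30) and Clec4n (-0.37) were lower in replicate 3. For Clec4e, replicates 1 and 2 lay -0.23 from the IRF5 KO LPS defactinib mean on the log2 scale, and replicate 3 lay 2.06 from the unstimulated mean.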
